A study of Mus musculus with 24 samples.

Results

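Hearts of C57BL/6 mice collected after 45 min of ischemia and 12 h of reperfusion were compared with hearts collected after the same ischemia and 3 h of reperfusion. The 6 libraries, 3 at each time, were picked by their treatment labels out of 24. The pair of times was chosen as lying at a like distance from sham on either side of 6 h. The other 18 libraries came from sham-operated hearts, hearts with 45 min of ischemia and no reperfusion, and hearts reperfused for 0.5, 1, 1.5 or 6 h. All animals were of the same strain, no genetic change or drug is labelled, and the labels do not say which part of the heart was taken, how old the mice were or whether each library came from its own mouse. If they did not, the p-values below measure only the spread between these libraries, which may be technical. By their labels the 12 h and 3 h hearts had the same 45 min of ischemia and differed by 9 h of reperfusion. The size of the injury is not labelled. The hour of the day at collection is not labelled for any library, so reperfusion time and hour of the day cannot be told apart. Whether hearts of 1 time were collected at 1 hour is not known.

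Restoring blood flow to an ischemic heart ends the lack of oxygen but adds injury of its own, through oxidants, calcium overload and inflammation. Heart muscle cells, endothelial cells and fibroblasts answer within minutes to hours with a wave of immediate early genes, which encode transcription factors and feedback inhibitors that need no new protein to be switched on, and with chaperones that refold damaged proteins. Neutrophils and then monocytes enter from the blood and clear dead tissue, and matrix genes of the scar follow. The title of the study concerns ATF3, a stress-induced transcription factor, FANCD2, a DNA crosslink repair protein, and ferroptosis, a form of cell death driven by iron-dependent lipid peroxidation.

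The 12 h libraries held 15767490, 17181458 and 16998075 reads counted on genes and the 3 h libraries 16169048, 15765679 and 15888233, so 3 reads corresponded to between 0.175 and 0.190 CPM, the count of a gene scaled to a common library size. Reads flagged as duplicates made up 41.9, 39.2 and 47.7% at 12 h and 46.6, 50.7 and 41.8% at 3 h. Libraries of the same time differed by more than the sampling noise of their counts, and no pair held identical values. The heart label held: Myh6, the main myosin of mouse heart muscle, lay at 19135, 18894 and 23156 CPM at 12 h and at 27474, 38455 and 31349 CPM at 3 h. Of 10 lung epithelium markers, 6 had no read in any of the 6 libraries, the surfactant gene Sftpc among them. In the clock genes Arntl, Dbp and Per3, 12 h replicate 3 and 3 h replicate 1 stood apart from the other libraries of their times (values below). Counts that rest on them are also given without both.

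At 12 h, 5092 of 15128 genes tested (33.7%) differed from 3 h at an adjusted p under 0.05. Of all genes tested, 2536 (16.8%) were higher and 2556 (16.9%) were lower at 12 h, and these 2 shares are the background for every list below. A change of at least 2-fold was called for 888 higher genes (5.87%) and 877 lower genes (5.8%). The 3 libraries of 12 h and the 3 of 3 h did not overlap for 6572 genes (43.4%). All adjusted p-values come from edgeR's quasi-likelihood test on all 24 libraries with Benjamini-Hochberg adjustment. Fold changes are log2 of 12 h over 3 h, given ± an approximate standard error (SE). This SE was worked back from the test, as the absolute log2 fold change over the square root of its F statistic. With both libraries that stood apart in clock genes left out, 2383 genes were higher and 2407 were lower. These calls, like all others, are relative to TMM scaling, under which the median gene changed by 0.0026 on the log2 scale. Scaling by library totals alone moved that median up by 0.226 and gave 4259 higher and 1215 lower genes, so the counts of lists are also given below under that scaling where it moved them by more than 1.5 times or where a list held many small falls.

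The times were chosen as lying at a like distance from sham on either side of 6 h, so their distances from sham are given as description only. The root mean square difference of group means over all genes, on the log2 scale, was 0.751 between 12 h and sham and 0.773 between 3 h and sham. Between 12 h and 3 h it was 0.708, against 0.496 between 12 h and 6 h and 0.663 between 6 h and 3 h. Sham hearts lay between both times for 1354 of the 2536 higher genes (53.4%) and for 1216 of the 2556 lower genes (47.6%). The 6 h mean was nearer to 12 h than to 3 h for 1731 of the higher genes (68.3%) and for 1579 of the lower genes (61.8%).

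The 12 largest rises among genes with at least 5 CPM and no overlap of the libraries were led by genes of myeloid cells and of tissue remodelling. In whole tissue, more cells of a type and more RNA per cell cannot be told apart. Chil3, which encodes the chitinase-like protein Ym1 of macrophages and neutrophils, had 25.9, 32.8 and 20.02 CPM at 12 h and 0.0602, 0 and 0.13004 CPM at 3 h. That is 1472 reads in all at 12 h and 3 at 3 h, a ratio of 402 with an exact 95% counting interval of 137 to 1950. Arg1, the arginase that splits arginine into ornithine and urea, had 14.4, 13.9 and 33.2 CPM at 12 h against 0.662, 0.07395 and 0.06502 CPM at 3 h (log2 fold change 6.14 ± 0.87, adjusted p = 2.39e-05). The lack of overlap between times was a condition for listing both genes and is no added support for them. Spp1, which encodes the secreted matrix protein osteopontin, had 13.5, 14.7 and 18.9 CPM at 12 h and 0.361, 0.222 and 0.2601 CPM at 3 h (log2 fold change 5.74 ± 0.59, adjusted p = 4.04e-07), with a mean of 2.51 CPM at 6 h and 0.151 CPM in sham hearts. Ccr2, the chemokine receptor by which monocytes leave the bone marrow and enter tissue, had 14.2, 16.9 and 16.3 CPM at 12 h and 0.903, 0.444 and 0.7803 CPM at 3 h (log2 fold change 4.44 ± 0.36, adjusted p = 2.31e-08). The 3 h level of Ccr2 was below the sham mean of 3.02 CPM, and the 12 h level was above it. Nmrk2, a muscle kinase that feeds nicotinamide riboside into NAD synthesis, had 73.9, 109.9 and 157 CPM at 12 h and 6.56, 9.98 and 10.4 CPM at 3 h (log2 fold change 3.67 ± 0.41, adjusted p = 9.9e-07). Neat1, the long noncoding RNA that scaffolds nuclear paraspeckles, had 1988, 1786 and 1447 CPM at 12 h and 318, 173 and 206 CPM at 3 h (log2 fold change 2.91 ± 0.25, adjusted p = 4.12e-08). As with Ccr2, the sham mean of Neat1, 489.6 CPM, lay between both times. The other 6 were the myeloid lectin Clec5a (log2 fold change 3.55), the membrane protease Adam12 (3.85), the coagulation factor gene F10 (3.81), the chemokine Ccl12 (3.10), the myeloid Schlafen gene Slfn4 (3.04) and the acute phase gene Saa3 (3.81). The call of Saa3 was lost under DESeq2.

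**Figure D1:**
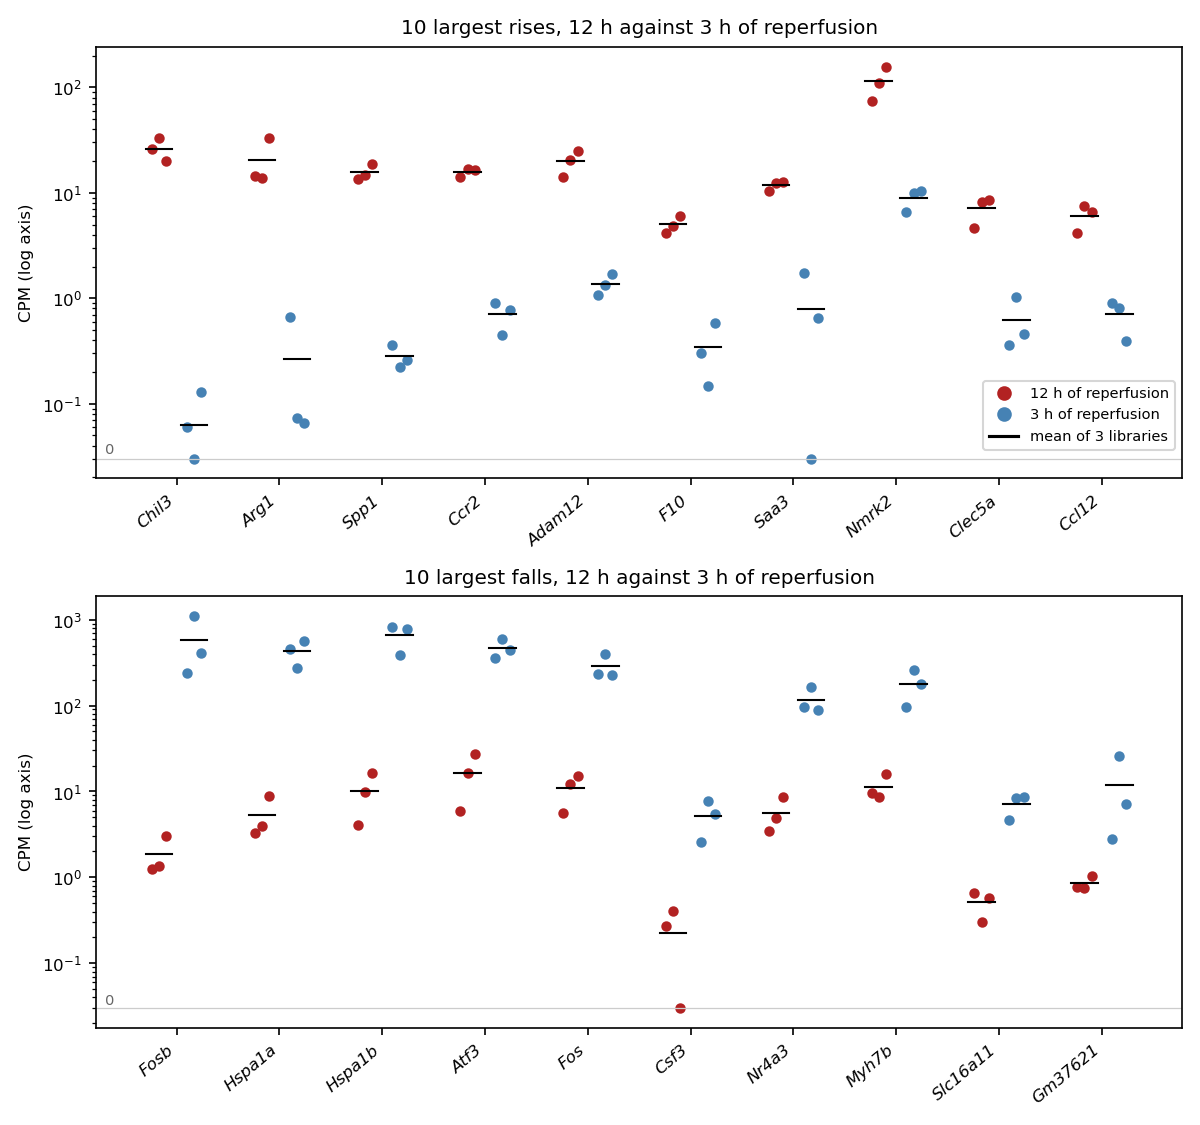
CPM (log axis) in each library for the 10 genes with the largest rises (top) and the 10 with the largest falls (bottom) among called genes with at least 5 CPM and no overlap; red points are the 3 libraries of 12 h, blue points the 3 of 3 h, bars their means, and points on the grey line are at 0. By that rule no red point overlaps the blue points of the same gene. The points at 0 are 1 library of 12 h for Csf3 and 1 library of 3 h for each of Chil3 and Saa3.

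The 12 largest falls were led by immediate early genes and by the inducible HSP70 pair. Of 35 immediate early genes tested, 31 were lower at 12 h (16.9% of all genes were), none was higher, and the median log2 fold change was -1.53. Under scaling by library totals 28 were lower. Fosb, a FOS-family partner in the AP-1 factor, had 1.26, 1.36 and 3.01 CPM at 12 h and 238, 1105 and 404 CPM at 3 h (log2 fold change -8.28 ± 0.79, adjusted p = 1.35e-07). Fos itself had 5.66, 12.1 and 15.1 CPM at 12 h and 233, 402 and 226 CPM at 3 h (log2 fold change -4.71 ± 0.48, adjusted p = 3.49e-07). The sham means were 1.03 CPM for Fosb and 11.97 CPM for Fos, near the 12 h values. Atf3, the ATF/CREB-family repressor named in the title of the study, had 5.99, 16.3 and 27.2 CPM at 12 h and 357, 591 and 444 CPM at 3 h (log2 fold change -4.81 ± 0.55, adjusted p = 1.37e-06). Its 6 h mean was 95.6 CPM and its sham mean 8.47 CPM, so 12 h replicate 1 was below the sham mean and replicates 2 and 3 were above it. Nr4a3, an orphan nuclear receptor that works without a known ligand, had 3.46, 4.85 and 8.7002 CPM at 12 h and 95.9, 163 and 89.2 CPM at 3 h (log2 fold change -4.36 ± 0.47, adjusted p = 6.05e-07). Its relative Nr4a1 had 8.13, 23.5 and 33.3 CPM at 12 h and 103, 327 and 232 CPM at 3 h (log2 fold change -3.35 ± 0.51, adjusted p = 3.89e-05). All 3 of its 12 h libraries were below the sham mean of 51.5 CPM. Egr1, a zinc finger factor, had 34.2, 32.6 and 163 CPM at 12 h and 449, 689.9 and 354 CPM at 3 h (log2 fold change -2.70 ± 0.52, adjusted p = 0.000402), with 12 h replicate 3 well above the other two. Junb, the JUN-family partner, had 57.3, 78.3 and 77.6 CPM at 12 h and 192, 285 and 233 CPM at 3 h (log2 fold change -1.73 ± 0.38, adjusted p = 0.00114). Its sham mean was 13.1 CPM, so it had not come down to sham. The 4 members that did not pass were Klf10 (log2 fold change 0.03), Ier3 (0.05), Klf2 (-0.45) and Ier5 (-0.76).

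The promoters of 4 of these falling genes are shown because they are among the largest falls and moved together. The cyclic AMP response element is the site of CREB and ATF factors, and its core TGACG was searched on both strands in the 250 bases before each start. The windows are RefSeq's, build GRCm38.p6, and are written in the direction of transcription with each TGACG, or CGTCA where it lies on the other strand, in capitals. Of 32851 such windows in the genome, 17.8% held at least 1 TGACG, and no 2 matches overlap in the windows printed. Fosb lies on the minus strand (chr7:19310046-19310295), Fos on the plus strand (chr12:85473640-85473889), Atf3 on the minus strand (chr1:191183334-191183583) and Nr4a3 on the plus strand (chr4:48045055-48045304).
Fosb: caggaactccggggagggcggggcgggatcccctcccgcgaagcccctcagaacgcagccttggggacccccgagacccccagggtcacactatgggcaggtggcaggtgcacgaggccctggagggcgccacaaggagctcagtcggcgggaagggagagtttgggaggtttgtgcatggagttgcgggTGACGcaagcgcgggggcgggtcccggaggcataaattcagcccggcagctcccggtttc
Fos: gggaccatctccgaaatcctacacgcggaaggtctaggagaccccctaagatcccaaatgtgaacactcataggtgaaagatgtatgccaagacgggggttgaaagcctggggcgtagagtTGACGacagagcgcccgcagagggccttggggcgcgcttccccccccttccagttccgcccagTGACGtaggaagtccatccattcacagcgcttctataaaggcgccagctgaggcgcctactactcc
Atf3: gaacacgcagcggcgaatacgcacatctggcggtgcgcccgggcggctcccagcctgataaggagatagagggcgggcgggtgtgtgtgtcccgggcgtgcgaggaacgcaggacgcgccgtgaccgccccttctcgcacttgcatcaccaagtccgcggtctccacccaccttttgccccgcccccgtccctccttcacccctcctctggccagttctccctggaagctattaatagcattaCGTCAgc
Nr4a3: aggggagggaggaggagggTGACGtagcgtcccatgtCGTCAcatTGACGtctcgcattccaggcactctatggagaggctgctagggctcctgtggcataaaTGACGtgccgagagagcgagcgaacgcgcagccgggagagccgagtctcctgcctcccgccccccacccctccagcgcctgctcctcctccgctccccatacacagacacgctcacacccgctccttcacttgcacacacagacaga
Fosb and Atf3 each held 1, Fos held 2 and Nr4a3 held 4. A match is a stretch of letters and does not show that a factor binds there.

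Many chaperones of the cytosol and of the endoplasmic reticulum were lower at 12 h. Of 24 heat shock chaperones tested, 13 were lower and 1 was higher, with a median log2 fold change of -0.40. Under scaling by library totals 9 were lower and 2 were higher, with a median of -0.16. Hspa1a, which encodes the inducible chaperone HSP70, had 3.296, 3.94 and 8.93 CPM at 12 h and 450.5, 275 and 568 CPM at 3 h (log2 fold change -6.33 ± 0.78, adjusted p = 4.14e-06). Its neighbour Hspa1b, which encodes a near-identical protein, had 4.12, 9.75 and 16.6 CPM at 12 h and 819, 392 and 787 CPM at 3 h (log2 fold change -6.04 ± 0.86, adjusted p = 1.67e-05). Only 66.4% of the reads of Hspa1a and 72.9% of those of Hspa1b were uniquely placed, so how reads divide between the pair is uncertain, while both fell. Dnajb1, their co-chaperone, had 15.1, 21.2 and 16.4 CPM at 12 h and 163, 109 and 95.1 CPM at 3 h (log2 fold change -2.80 ± 0.54, adjusted p = 0.00038). Hsph1, a nucleotide exchange factor of HSP70, had 47.1, 43.9 and 49.7 CPM at 12 h and 147, 97.1 and 95.6 CPM at 3 h (log2 fold change -1.27 ± 0.31, adjusted p = 0.00343). Its sham mean of 51.997 CPM was near the 12 h values. The 1 member that was higher was Hspb7, a small heat shock protein of heart muscle, with 3161, 2909.98 and 3494 CPM at 12 h and 1906, 2584 and 2477 CPM at 3 h (log2 fold change 0.46 ± 0.12, adjusted p = 0.00613); this call was lost with duplicates removed, with only the 6 libraries in the fit and with both libraries that stood apart left out.

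The promoters of the HSP70 pair, shown because the largest chaperone falls were theirs, are on the minus strand of chromosome 17 at chr17:34972157-34972406 for Hspa1a and chr17:34959239-34959488 for Hspa1b. Heat shock factor 1 binds inverted repeats of GAA, and the pairs GAANNTTC and TTCNNGAA, each its own reverse complement, are in capitals. At least 1 pair occurred in 12.8% of all windows.
Hspa1a: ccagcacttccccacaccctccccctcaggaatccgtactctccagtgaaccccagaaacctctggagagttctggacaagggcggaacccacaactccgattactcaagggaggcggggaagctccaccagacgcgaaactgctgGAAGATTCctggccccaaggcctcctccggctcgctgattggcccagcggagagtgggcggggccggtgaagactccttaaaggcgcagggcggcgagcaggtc
Hspa1b: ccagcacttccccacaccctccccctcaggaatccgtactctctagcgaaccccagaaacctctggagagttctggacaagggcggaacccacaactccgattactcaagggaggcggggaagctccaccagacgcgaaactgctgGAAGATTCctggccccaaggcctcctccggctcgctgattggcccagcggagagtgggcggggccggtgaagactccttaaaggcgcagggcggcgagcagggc
These windows share 247 of 250 bases, and each holds 1 pair, at -104 from the start.

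Of 20 endoplasmic reticulum chaperones, which fold secreted and membrane proteins, 12 were lower and none was higher, with a median of -0.61. Under scaling by library totals 9 were lower. Hspa5, the master chaperone BiP, had 363, 529 and 548 CPM at 12 h and 1157, 962 and 1297 CPM at 3 h (log2 fold change -1.25 ± 0.17, adjusted p = 8.52e-06). Hsp90b1, its partner GRP94, had 120.1, 171 and 168 CPM at 12 h and 409.5, 295 and 464 CPM at 3 h (log2 fold change -1.35 ± 0.18, adjusted p = 1.01e-05). Herpud1, which helps export misfolded proteins, had 109, 101 and 139 CPM at 12 h and 327, 243 and 307 CPM at 3 h (log2 fold change -1.33 ± 0.22, adjusted p = 0.000109). For Hsp90b1 and Herpud1 every 12 h value was also below the sham mean, 224 CPM and 205 CPM. The integrated stress response, which slows translation and turns on amino acid synthesis, did not move one way: 3 of 21 members were higher and 4 were lower. The counts were 6 and 1 under scaling by library totals, 6 and 4 without 3 h replicate 1, 5 and 3 without 12 h replicate 1 or without both libraries that stood apart, and 5 and 7 with no filter. Ppp1r15a, the phosphatase subunit that ends the response, had 32.5, 31.9 and 35.6 CPM at 12 h and 109, 167 and 192 CPM at 3 h (log2 fold change -2.22 ± 0.30, adjusted p = 9.25e-06). Psat1, an enzyme of serine synthesis, had 10.6, 12.2 and 16.7 CPM at 12 h and 5.54, 3.99 and 5.14 CPM at 3 h (log2 fold change 1.42 ± 0.26, adjusted p = 0.000257). Phgdh, the first enzyme of that route, had 3.24, 3.18 and 3.58 CPM at 12 h and 1.32, 0.518 and 1.3004 CPM at 3 h (log2 fold change 1.64 ± 0.34, adjusted p = 0.000847). Atf4, the response's main factor, had 107, 121 and 88.9 CPM at 12 h and 184, 149 and 182 CPM at 3 h (log2 fold change -0.69 ± 0.19, adjusted p = 0.00757), a call lost under scaling by library totals and without both libraries that stood apart.

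**Figure D2:**
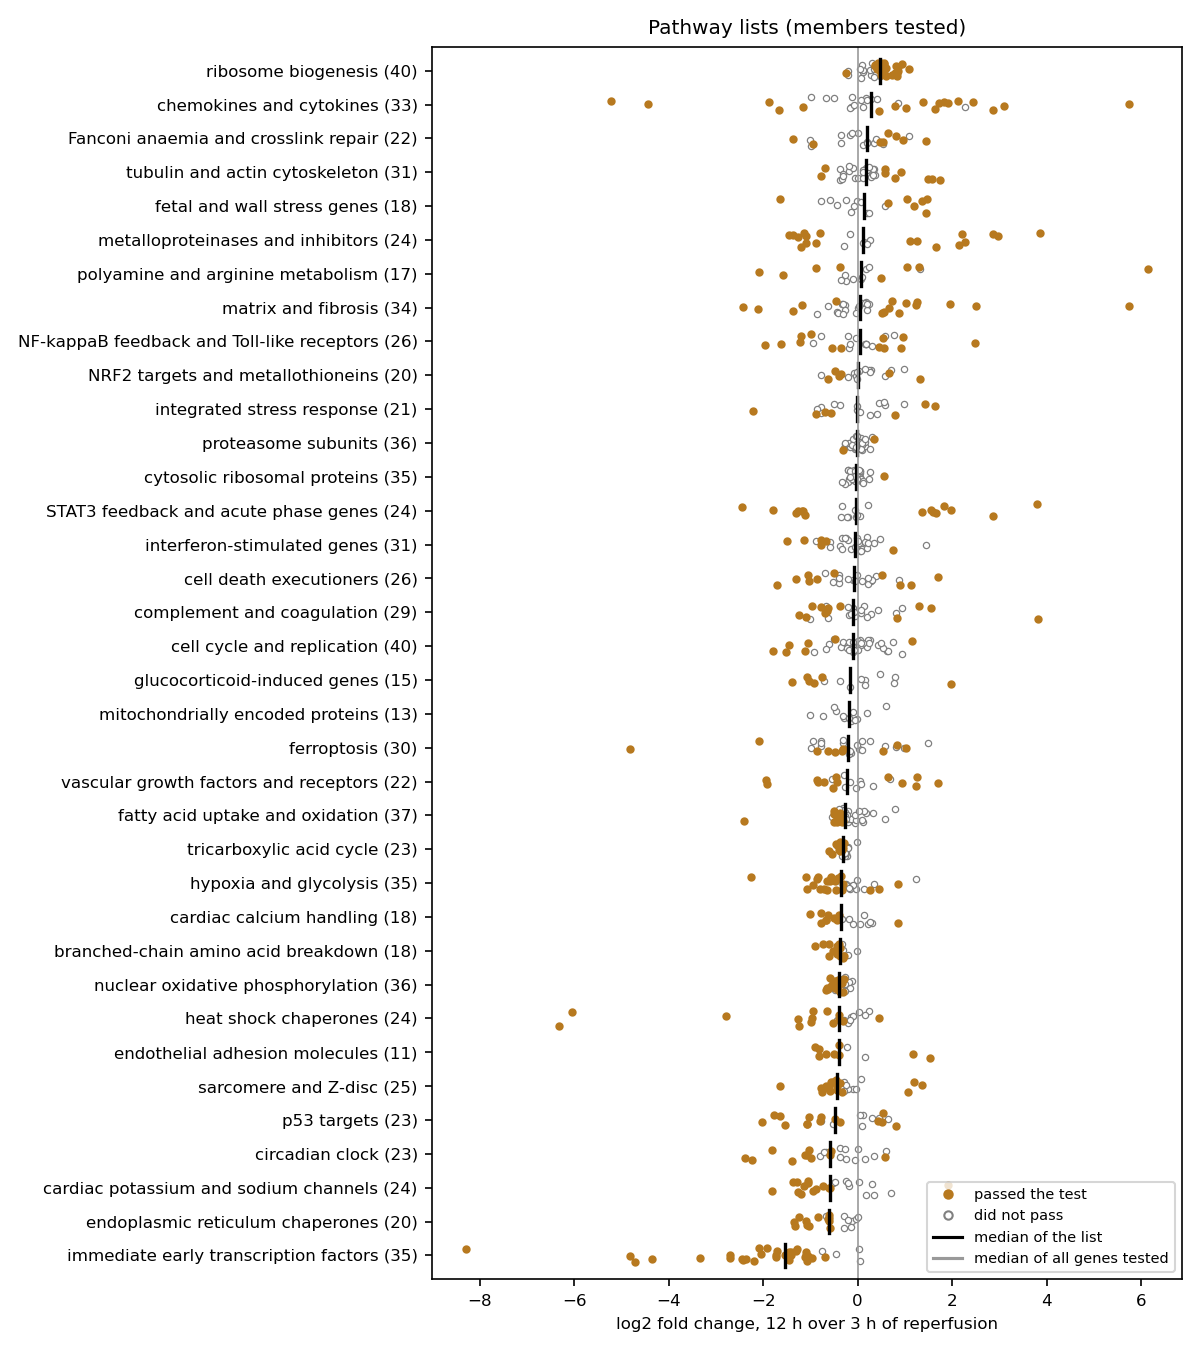
Log2 fold change of 12 h over 3 h for the tested members of 36 pathway lists (number tested in parentheses), sorted by median; filled points passed an adjusted p under 0.05, open points did not, black bars are list medians and the grey line is the median of all genes tested. Immediate early factors have the lowest median, -1.53, and ribosome biogenesis the highest, 0.48.

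Of 33 chemokines and cytokines tested, 13 were higher and 5 were lower at 12 h (16.8% and 16.9% of all genes). The 5 lower ones were cytokines and neutrophil attractants. Csf3, the growth factor of neutrophils, had 0.275, 0.404 and 0 CPM at 12 h and 2.59, 7.69 and 5.397 CPM at 3 h (log2 fold change -4.44 ± 0.75, adjusted p = 0.000109). Il6, the main inducer of the acute phase response, had 3.63, 6.11 and 4.89 CPM at 12 h and 12.5, 17.97 and 23.5 CPM at 3 h (log2 fold change -1.88 ± 0.41, adjusted p = 0.00134). Cxcl1, a neutrophil attractant, had 8.46, 19.8 and 16.7 CPM at 12 h and 42.9, 55.8 and 44.9 CPM at 3 h (log2 fold change -1.67 ± 0.32, adjusted p = 0.000396). All 3 of these genes stayed above their sham means at 12 h except for 12 h replicate 3 of Csf3, which had no read. Cxcl2, a second attractant of neutrophils, had 6.04, 6.77 and 7.79 CPM at 12 h and 15.3, 13.02 and 17.4 CPM at 3 h (log2 fold change -1.15 ± 0.37, adjusted p = 0.0197), a call lost under scaling by library totals and without 3 h replicate 3, 12 h replicate 1 or 12 h replicate 2. The fifth was Il10, an anti-inflammatory cytokine, with 1 read at 12 h and 44 reads at 3 h. The ratio of 3 h over 12 h was 53.7, with an exact 95% counting interval of 9.16 to 2170.

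Monocyte attractants were among the 13 that were higher. Ccl7 had 21.5, 50.98 and 39.2 CPM at 12 h and 10.5, 7.91 and 7.22 CPM at 3 h (log2 fold change 2.12 ± 0.37, adjusted p = 0.000147). Ccl12 had 4.12, 7.48 and 6.596 CPM at 12 h and 0.903, 0.813 and 0.3901 CPM at 3 h (log2 fold change 3.10 ± 0.48, adjusted p = 4.39e-05). Both are ligands of CCR2. Neither overlapped between times, but that was a condition for listing Ccl12 among the largest rises, and Ccl7 was picked among called members. Their lack of overlap is therefore no added support, and 43.4% of all genes tested did not overlap. Ccl2, the best known CCR2 ligand, had 32.2, 88.3 and 64.996 CPM at 12 h and 27.5, 19.8 and 23.5 CPM at 3 h (log2 fold change 1.39 ± 0.37, adjusted p = 0.00635). The call was lost without 12 h replicate 2. The neutrophil attractants Cxcl3 and Cxcl5 were higher and not lower at 12 h. Cxcl3 had 7.69, 7.78 and 11.03 CPM at 12 h and 1.87, 0.666 and 1.04 CPM at 3 h (log2 fold change 2.86 ± 0.52, adjusted p = 0.000281). Cxcl5 had 38.6, 56.7 and 46.2 CPM at 12 h and 19.8, 6.36 and 13.2 CPM at 3 h (log2 fold change 1.84 ± 0.29, adjusted p = 6.32e-05). Il1b, which encodes the alarm cytokine interleukin 1 beta, had 10.1, 18.3 and 7.56 CPM at 12 h and 2.23, 2.66 and 4.62 CPM at 3 h (log2 fold change 1.92 ± 0.39, adjusted p = 0.000616). For Cxcl3, Cxcl5 and Il1b the highest mean of the 4 groups shown was at 6 h, 16.5, 116 and 18.1 CPM.

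Most tested markers of recruited myeloid cells were higher at 12 h. Of 15 neutrophil markers tested, 12 were higher and none was lower, with a median log2 fold change of 1.82. Without 3 h replicate 2, 1 was lower. With no filter 13 of 21 were higher and 1 was lower, with a median of 1.68. The other 7 of the 22 listed markers did not pass the filter on low counts. High counts at any time could carry a gene past that filter. Markers near 0 at 3 h, such as Cd177, thus entered through other times, which can tilt the share and the median of tested markers upward. Summed over the 22, the markers made up 97.5, 113 and 109 CPM at 12 h and 48.4, 24.4 and 58.3 CPM at 3 h. Cd177, a surface protein of neutrophils, had 1.76, 1.72 and 2.104 CPM at 12 h and 0.181, 0.07395 and 0 CPM at 3 h (log2 fold change 4.29 ± 0.77, adjusted p = 0.000258). S100a8, the calgranulin subunit that fills neutrophil cytosol, had 11.3, 14.9 and 12.9 CPM at 12 h and 3.85, 2.37 and 6.18 CPM at 3 h (log2 fold change 1.65 ± 0.45, adjusted p = 0.0065). Mmp9, the gelatinase of neutrophil granules, had 4.94, 6.67 and 5.97 CPM at 12 h and 1.45, 0.592 and 1.69 CPM at 3 h (log2 fold change 2.21 ± 0.45, adjusted p = 0.000715). Retnlg, also a neutrophil gene, had 3.02, 2.07 and 1.93 CPM at 12 h and 2.77, 0.7395 and 2.86 CPM at 3 h (log2 fold change 0.12 ± 0.56, adjusted p = 0.885) and did not pass. The 6 h sums of the 22 markers, 115, 255 and 124 CPM, were above those of 12 h.

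Of 16 markers of recruited monocytes, 13 were higher and 2 were lower, with a median of 1.86. Besides Chil3, Arg1 and Ccr2 above, F10 had 4.17, 4.7999 and 6.08 CPM at 12 h and 0.301, 0.148 and 0.585 CPM at 3 h (log2 fold change 3.81 ± 0.61, adjusted p = 6.62e-05). F13a1, the transglutaminase chain of coagulation that monocytes and macrophages carry, had 103, 99.3 and 119 CPM at 12 h and 32.3, 38.5 and 39.1 CPM at 3 h (log2 fold change 1.55 ± 0.16, adjusted p = 3.56e-07). Thbs1, a matrix protein that many cells make, was 1 of the 2 lower members, at 112, 214 and 423 CPM at 12 h and 747, 581 and 613 CPM at 3 h (log2 fold change -1.37 ± 0.35, adjusted p = 0.00452). The other was Cd14, the endotoxin co-receptor, at 18.9, 35.7 and 38.2 CPM at 12 h and 89.9, 49.8 and 74.3 CPM at 3 h (log2 fold change -1.21 ± 0.30, adjusted p = 0.00383). The summed level of the list, Thbs1 included, was 505, 684 and 986 CPM at 12 h and 1091, 821 and 927 CPM at 3 h, with overlap. Markers of macrophages that live in the heart gave 3 higher and 2 lower of 18, with a median of -0.03. F13a1 is on both lists and is counted among the higher members of each. The counts were 6 and 2 under scaling by library totals, 1 and 2 without 3 h replicate 2 and 3 and 1 without 12 h replicate 1. They were 1 and 1 without 12 h replicate 2 and 2 and 1 with only the 6 libraries in the fit. Gas6, a ligand of the receptors that clear dead cells, had 93.1, 92.6 and 87.8 CPM at 12 h and 145, 163 and 161 CPM at 3 h (log2 fold change -0.78 ± 0.12, adjusted p = 5.34e-05). Mrc1, the mannose receptor, had 53.5, 55.1 and 55.6 CPM at 12 h and 44.7, 32.9 and 40.7 CPM at 3 h (log2 fold change 0.47 ± 0.15, adjusted p = 0.0189; call lost without 3 h replicate 2 or 12 h replicate 2). The summed level of resident macrophage markers was 591, 587 and 555 CPM at 12 h and 600, 521 and 582 CPM at 3 h, with overlap.

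**Figure D3:**
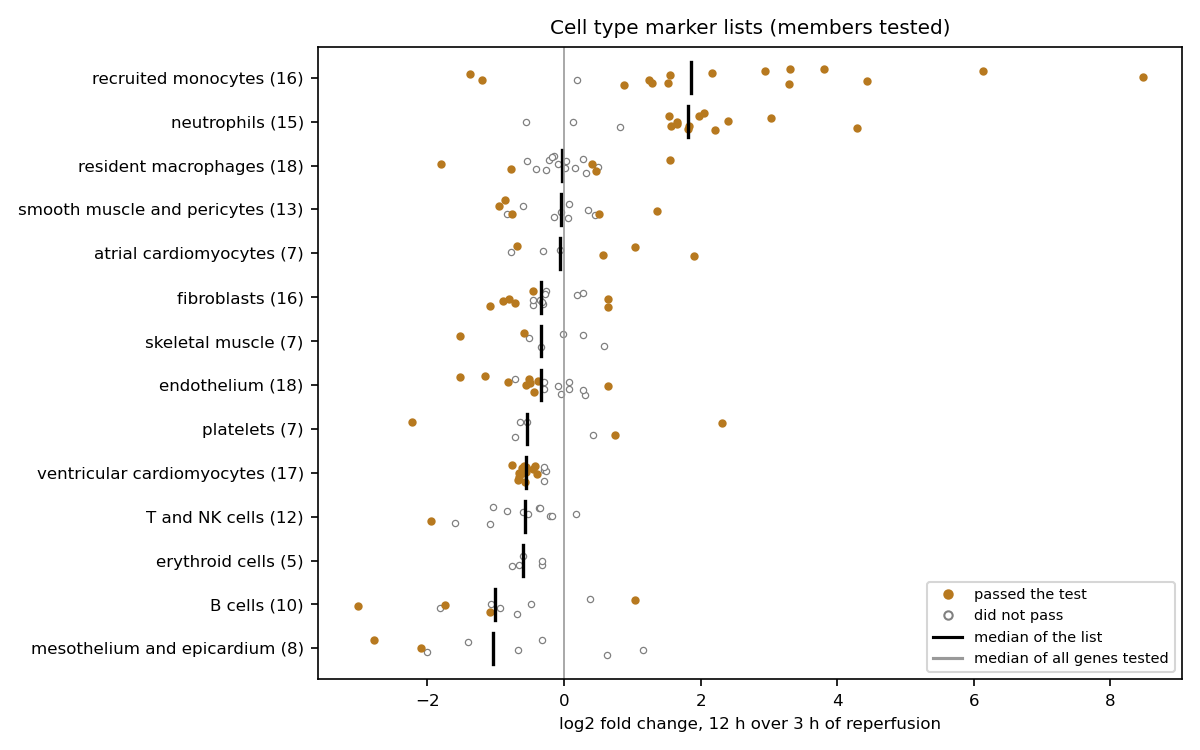
Log2 fold change of 12 h over 3 h for the tested members of cell type marker lists with at least 5 tested members (number in parentheses), sorted by median; filled points passed an adjusted p under 0.05, open points did not, and black bars are list medians. Monocyte and neutrophil markers lie apart to the right, with medians of 1.86 and 1.82, while ventricular cardiomyocyte markers lie together below 0 with a median of -0.56.

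In the list of STAT3 feedback and acute phase genes, 8 of 24 were higher and 7 were lower. Socs3, which blocks interleukin 6 receptors, had 43.2, 49.4 and 40.9 CPM at 12 h and 195, 292 and 241 CPM at 3 h (log2 fold change -2.44 ± 0.46, adjusted p = 0.000296). The sham mean was 2.41 CPM. Pim1, a kinase that STAT3 turns on, had 25.98, 28.1 and 26.2 CPM at 12 h and 72.9, 115 and 91.4 CPM at 3 h (log2 fold change -1.80 ± 0.23, adjusted p = 4.92e-06). Lcn2, an iron-binding acute phase protein, had 161, 177 and 145 CPM at 12 h and 67.5, 27.4 and 27.8 CPM at 3 h (log2 fold change 1.97 ± 0.36, adjusted p = 0.000237). Serpina3n, a protease inhibitor, had 192, 193 and 202 CPM at 12 h and 97.1, 26.3 and 40.6 CPM at 3 h (log2 fold change 1.83 ± 0.29, adjusted p = 4.76e-05). Timp1, the inhibitor of metalloproteinases, had 57.01, 93.6 and 76.4 CPM at 12 h and 15.7, 5.92 and 9.17 CPM at 3 h (log2 fold change 2.87 ± 0.27, adjusted p = 1.32e-07). Socs3 and Pim1 were lower in every 12 h library than in any 3 h library. Lcn2, Serpina3n and Timp1 were higher in every 12 h library than in any 3 h library. These genes were picked among the called members of the list, so their lack of overlap is no added support. Over the list of 24, 8 genes were higher without overlap and 9 were lower without overlap. Of all genes tested, 43.4% did not overlap in either direction.

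NF-kappaB genes and Toll-like receptors gave 6 higher and 7 lower of 26, the higher count being 2 without 3 h replicate 2 or without 12 h replicate 2 and 3 without 3 h replicate 3. Rel, the NF-kappaB subunit of immune cells, had 19.2, 22.5 and 20.2 CPM at 12 h and 86.2, 88.8 and 64.7 CPM at 3 h (log2 fold change -1.95 ± 0.15, adjusted p = 7.09e-09). Nfkbiz, a nuclear regulator of NF-kappaB, had 9.45, 15.6 and 18.4 CPM at 12 h and 43.96, 47.1 and 42.004 CPM at 3 h (log2 fold change -1.61 ± 0.33, adjusted p = 0.000718). Tlr1, a receptor of bacterial lipopeptides, had 2.53, 3.94 and 3.41 CPM at 12 h and 1.08, 0.148 and 0.455 CPM at 3 h (log2 fold change 2.49 ± 0.50, adjusted p = 0.000621). Of 11 adhesion molecules of the vessel wall and of leukocytes, 7 were lower and 2 were higher. The lower count was 2 under scaling by library totals and 4 without 3 h replicate 3. Icam1, to which leukocytes bind on endothelium, had 25.4, 46.99 and 41.97 CPM at 12 h and 69.4, 72.3 and 60.6 CPM at 3 h (log2 fold change -0.82 ± 0.20, adjusted p = 0.00277). Cd44, a hyaluronan receptor that leukocytes and other cells carry, was 1 of the 2 higher members and had 38.5, 77.2 and 74.6 CPM at 12 h and 36.6, 17.2 and 29.9 CPM at 3 h (log2 fold change 1.18 ± 0.26, adjusted p = 0.00137). Interferon-stimulated genes mostly did not pass: 1 of 31 was higher and 5 were lower, or 2 and 2 without 3 h replicate 1, 2 and 3 without 12 h replicate 3 or under scaling by library totals, and 2 and 1 without both. They were 3 and 8 with no filter, 2 and 7 under DESeq2 and 2 and 4 with only the 6 libraries in the fit.

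Matrix genes changed in both directions. Of 34 matrix and fibrosis genes, 11 were higher and 5 were lower, the lower count being 3 under scaling by library totals or without 3 h replicate 3 and 9 with no filter on low counts. Thbs4, a thrombospondin of injured heart, had 35.04, 32.3 and 25.6 CPM at 12 h and 11.7, 4.29 and 7.803 CPM at 3 h (log2 fold change 1.95 ± 0.32, adjusted p = 7.12e-05). Tgfb2, a transforming growth factor beta, had 39.2, 46.9 and 51.01 CPM at 12 h and 18.2, 18.7 and 20.5 CPM at 3 h (log2 fold change 1.25 ± 0.20, adjusted p = 5.44e-05). On the lower side, Ccn1, a matricellular protein and immediate early gene, had 84.6, 65.3 and 200.3 CPM at 12 h and 329.8, 983 and 559 CPM at 3 h (log2 fold change -2.42 ± 0.39, adjusted p = 6.96e-05), and 12 h replicate 3 was the highest of its 3 libraries. Has1, a hyaluronan synthase, had 1.59, 3.18 and 4.15 CPM at 12 h and 14.7, 7.395 and 16.4 CPM at 3 h (log2 fold change -2.11 ± 0.49, adjusted p = 0.00212), with almost no reads in sham hearts.

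Of 24 metalloproteinases and their inhibitors, 9 were higher and 9 were lower. Mmp19 had 13.8, 20.4 and 16.6 CPM at 12 h and 4.03, 3.402 and 3.12 CPM at 3 h (log2 fold change 2.26 ± 0.29, adjusted p = 5.45e-06). Mmp12, the macrophage elastase, had 2.36, 5.86 and 6.26 CPM at 12 h and 0.723, 0.296 and 0.7803 CPM at 3 h (log2 fold change 2.97 ± 0.64, adjusted p = 0.00112). The membrane-bound Adam12 had 14.1, 20.6 and 24.8 CPM at 12 h and 1.08, 1.33 and 1.69 CPM at 3 h (log2 fold change 3.85 ± 0.32, adjusted p = 2.72e-08). Secreted ADAMTS proteases were among the lower ones. Adamts1 had 159, 115 and 256 CPM at 12 h and 320.03, 565 and 559.6 CPM at 3 h (log2 fold change -1.45 ± 0.36, adjusted p = 0.00379). Adamts9 had 51.2, 49.2 and 50.9 CPM at 12 h and 130.4, 137 and 123 CPM at 3 h (log2 fold change -1.37 ± 0.18, adjusted p = 9.25e-06). Adamts4 had 21.97, 31.1 and 23.3 CPM at 12 h and 45.3, 57.1 and 73.7 CPM at 3 h (log2 fold change -1.21 ± 0.39, adjusted p = 0.0194), a call lost under scaling by library totals and without 3 h replicate 3, 12 h replicate 1 or 12 h replicate 3.

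Genes of heart muscle contraction and excitation were mostly lower at 12 h. All 17 markers of ventricular cardiomyocytes lay below 0 and 13 were called lower, with a median of -0.56; 9 were called under scaling by library totals and 8 without 3 h replicate 2. Summed, these markers made up 66573, 65260 and 74891 CPM at 12 h, against 87731, 119400 and 100720 CPM at 3 h and 94212, 92387 and 89667 CPM in sham hearts. The 12 h sums were thus the lowest of these groups. Atp2a2, the calcium pump SERCA2a, had 9529, 9204 and 10124 CPM at 12 h and 12723, 17481 and 15447 CPM at 3 h (log2 fold change -0.66 ± 0.11, adjusted p = 9.74e-05). Mybpc3, the cardiac myosin-binding protein C, had 2138, 1870.2 and 2262 CPM at 12 h and 3161, 3739.8 and 3762 CPM at 3 h (log2 fold change -0.77 ± 0.13, adjusted p = 0.000136). In the sarcomere and Z-disc list 15 of 25 were lower and 3 were higher. The lower count was 6 under scaling by library totals, 7 without 3 h replicate 2, and 9 without 12 h replicate 1, without 12 h replicate 2 or with only the 6 libraries in the fit. The higher count was 1 without 3 h replicate 1, without 12 h replicate 3, without both or with only the 6 libraries. The cardiomyocyte markers are themselves genes of contraction and calcium handling, Mybpc3 and Atp2a2 among them. Their sum is therefore no separate measure of the share of cardiomyocyte RNA. What part that share has in each fall was not tested. Myh7b, a slow myosin gene that hosts a microRNA, fell further, to 9.502, 8.64 and 15.98 CPM at 12 h against 95.03, 261 and 177 CPM at 3 h (log2 fold change -3.97 ± 0.35, adjusted p = 5.63e-08). Its sham mean was 89.7 CPM.

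Stretch-responsive genes of cardiomyocytes did not share one direction. Ankrd1, a nuclear and sarcomeric stress protein, had 3705, 5434 and 4811 CPM at 12 h and 1372, 2092 and 1950.5 CPM at 3 h (log2 fold change 1.37 ± 0.22, adjusted p = 6.35e-05). Fhl1, a sarcomeric LIM protein of hypertrophy, had 590.4, 707 and 1099.98 CPM at 12 h and 211, 286 and 374 CPM at 3 h (log2 fold change 1.46 ± 0.25, adjusted p = 0.000104). Xirp1, an actin-binding repair protein of intercalated discs, had 419, 524 and 875 CPM at 12 h and 1176, 2252 and 2222 CPM at 3 h (log2 fold change -1.64 ± 0.30, adjusted p = 0.000255), the other way. Its relative Xirp2 had 419.7, 934 and 2040.1 CPM at 12 h and 345, 570.3 and 561 CPM at 3 h (log2 fold change 1.20 ± 0.36, adjusted p = 0.0128). That call rested on 1 high library: without 12 h replicate 3 the log2 fold change was 0.46 (adjusted p = 0.276), and the call was also lost without 3 h replicate 1, with both left out and with only the 6 libraries in the fit. Of 18 fetal and wall stress genes, 6 were higher and 1 was lower, or 4 and 3 without both libraries, 5 and 2 without 12 h replicate 1, 7 and 2 without 12 h replicate 2 and 7 and 3 with no filter. The median was 0.13, and 0.36 without 12 h replicate 1. Nppa, the atrial natriuretic peptide, had 139, 112 and 87.97 CPM at 12 h and 54.9, 47.996 and 62.6 CPM at 3 h (log2 fold change 1.04 ± 0.32, adjusted p = 0.0152). The call was lost without 3 h replicate 2 or 12 h replicate 1. A share of 61.5% of the exonic length of Nppa overlaps another gene, and since the strand setting is not given in the sources used here, reads of the overlap cannot be assigned.

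Of 24 genes in a list of cardiac potassium, sodium and pacemaker channels and the connexins Gja1 and Gja5, 13 were lower and 1 was higher. The median was -0.60. Under scaling by library totals 9 were lower and 4 were higher, with a median of -0.37. With no filter the counts were 15 and 2. Kcnip2, the subunit that sets the fast transient outward current, had 72.4, 50.4 and 61.4 CPM at 12 h and 158, 149 and 144 CPM at 3 h (log2 fold change -1.29 ± 0.18, adjusted p = 1.57e-05). The sham mean was 143 CPM. Hcn2, a pacemaker channel, had 22.6, 14.8 and 18.6 CPM at 12 h and 50.1, 44.7 and 49.2 CPM at 3 h (log2 fold change -1.37 ± 0.19, adjusted p = 1.05e-05). Abcc8, a sulfonylurea receptor of ATP-sensitive potassium channels, had 27.6, 18.9 and 21.7 CPM at 12 h and 43.96, 66.1 and 53.3 CPM at 3 h (log2 fold change -1.26 ± 0.15, adjusted p = 2.83e-06). For Kcnip2, Hcn2 and Abcc8 every 12 h library was below every 3 h library. They were picked among the called members, so this is no added support. Over the list of 24, 11 genes were lower without overlap and 2 were higher without overlap, beside 43.4% of all genes tested in either direction. The 1 higher gene was no potassium or sodium channel but Gja5, the gap junction protein connexin 40 of atria, conduction tissue and arteries, at 7.09, 9.95 and 7.904 CPM at 12 h and 2.95, 1.33 and 2.28 CPM at 3 h (log2 fold change 1.91 ± 0.30, adjusted p = 5.94e-05). Calcium handling genes gave 9 lower and 1 higher of 18, but 5 lower and 4 higher under scaling by library totals and 5 and 2 without 3 h replicate 2. Cacna1c, the L-type calcium channel pore, had 169.8, 189 and 218 CPM at 12 h and 320.3, 456 and 387 CPM at 3 h (log2 fold change -1.01 ± 0.15, adjusted p = 3.02e-05). Adrb1, the beta 1 adrenergic receptor, was the higher one, with 19.3, 16.6 and 17.1 CPM at 12 h and 11.2, 8.13 and 10.01 CPM at 3 h (log2 fold change 0.85 ± 0.18, adjusted p = 0.000817).

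**Figure D4:**
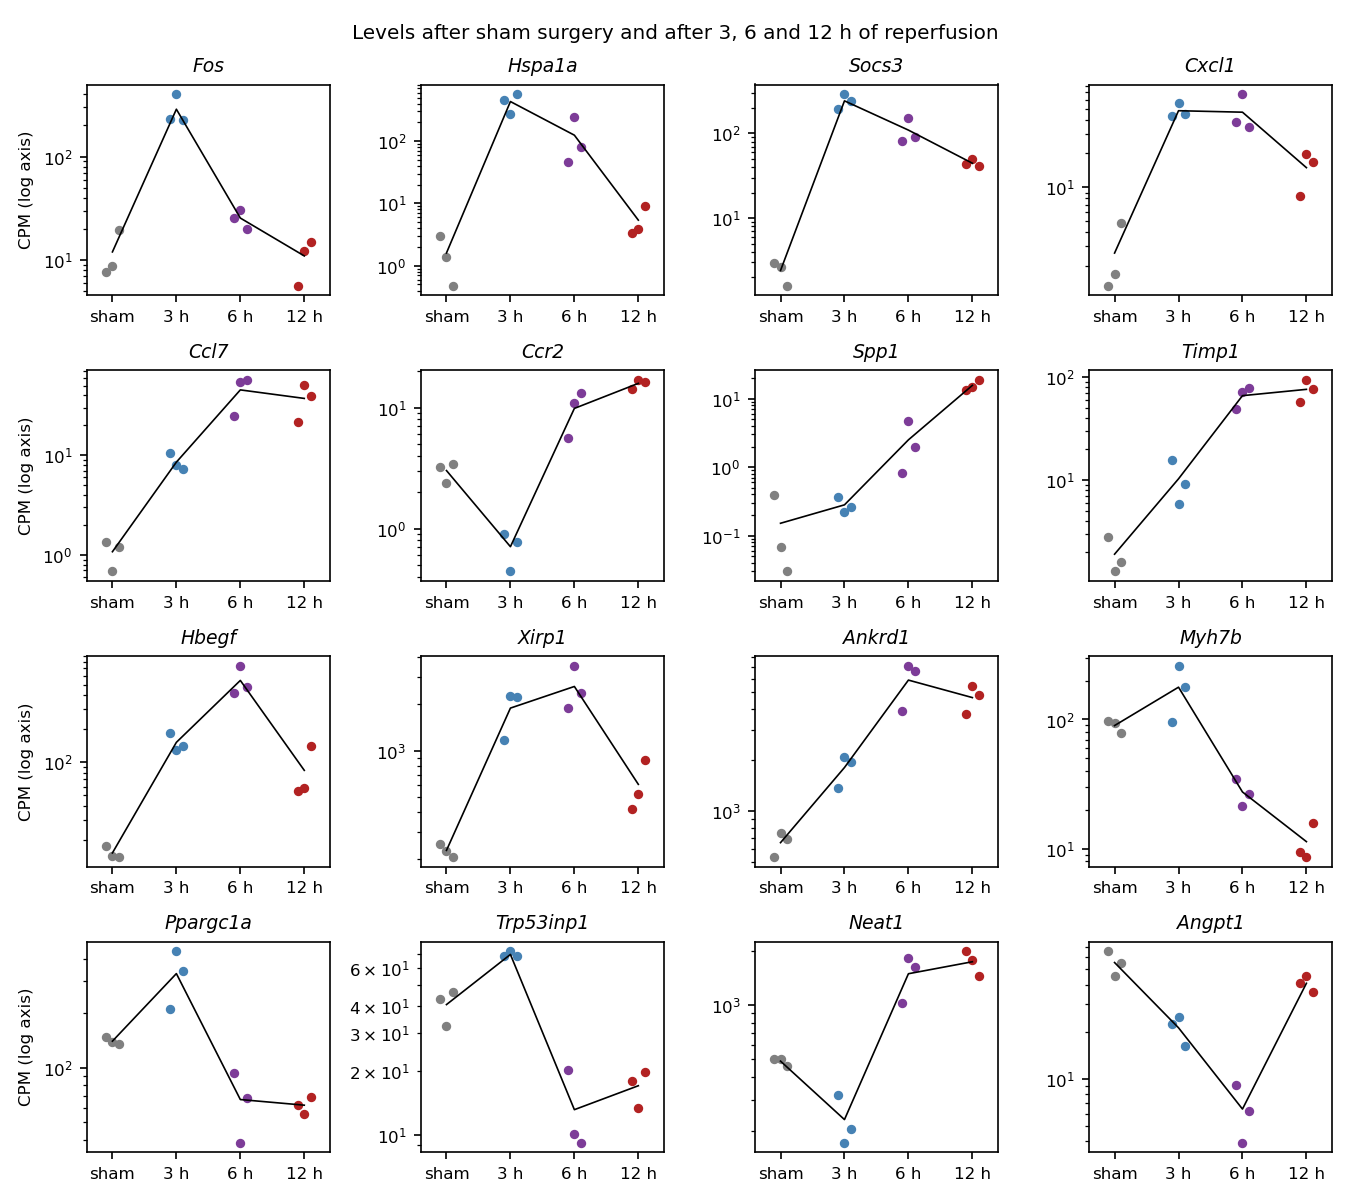
CPM (log axis) of 16 genes in the 3 libraries of sham hearts and of hearts after 3, 6 and 12 h of reperfusion; lines join group means. Fos, Hspa1a and Socs3 are highest at 3 h, Spp1 and Ccr2 climb to their highest level at 12 h, Hbegf and Ankrd1 peak at 6 h, and Angpt1 is lowest at 6 h.

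Many genes of fuel use were lower at 12 h, among them 2 regulators by a large amount. Ppargc1a, the coactivator PGC-1 alpha that drives mitochondrial gene expression, had 62.3, 55.2 and 68.7 CPM at 12 h and 211, 439 and 343 CPM at 3 h (log2 fold change -2.41 ± 0.25, adjusted p = 5.1e-07). Its sham mean, 140.2 CPM, lay between both times. Pfkfb3, which makes the activator of glycolytic phosphofructokinase, had 12.5, 17.2 and 24.9 CPM at 12 h and 120.3, 59.5 and 81.7 CPM at 3 h (log2 fold change -2.26 ± 0.34, adjusted p = 3.52e-05). Of 35 genes of hypoxia and glycolysis, 19 were lower and 3 were higher, or 12 and 5 under scaling by library totals and 21 and 1 without both libraries. Slc2a4, the insulin-regulated glucose transporter of muscle, had 176, 130.5 and 178 CPM at 12 h and 301, 372 and 354 CPM at 3 h (log2 fold change -1.08 ± 0.14, adjusted p = 5.94e-06). Hk2, hexokinase 2, had 132, 179.97 and 248 CPM at 12 h and 299.8, 361 and 307 CPM at 3 h (log2 fold change -0.79 ± 0.15, adjusted p = 0.000451).

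All 36 nuclear genes of oxidative phosphorylation lay below 0, and 21 were called lower, with a median of -0.39. That count was 2 under scaling by library totals, 8 with only the 6 libraries in the fit, 6 without 3 h replicate 2 and 12 without 3 h replicate 3. Cox4i1, a subunit of cytochrome oxidase, had 943, 804 and 884 CPM at 12 h and 1112, 1426 and 1406 CPM at 3 h (log2 fold change -0.58 ± 0.15, adjusted p = 0.00382). Of 23 tricarboxylic acid cycle genes 11 were lower, from 2 under scaling by library totals and 3 without 3 h replicate 2 or with only the 6 libraries, 5 without 3 h replicate 3 or 12 h replicate 2 or with no filter and 7 without 12 h replicate 1, to 18 without 3 h replicate 1, 19 under DESeq2 and 21 without both libraries that stood apart. Idh2, the mitochondrial isocitrate dehydrogenase that makes NADPH, had 962, 990.3 and 1076 CPM at 12 h and 1251, 1809.8 and 1553 CPM at 3 h (log2 fold change -0.61 ± 0.12, adjusted p = 0.000579). Branched-chain amino acid breakdown gave 14 lower of 18, but 4 under scaling by library totals, 6 without 3 h replicate 2 or with only the 6 libraries in the fit, and 8 without 12 h replicate 2 or with no filter. Ppm1k, the phosphatase that activates this route, had 37.7, 38.6 and 47.5 CPM at 12 h and 65.9, 89.5 and 77.8 CPM at 3 h (log2 fold change -0.91 ± 0.14, adjusted p = 4.07e-05). Fatty acid uptake and oxidation gave 11 lower and none higher of 37, against 1 and 1 under scaling by library totals, 2 and 1 without 3 h replicate 2 and 4 and 0 with only the 6 libraries in the fit. The higher count was also 1 without 12 h replicate 3 and 2 without 3 h replicate 1, without both or with no filter. Beside these medians, that of ventricular cardiomyocyte markers was -0.56, and the part of the cell markers in these falls was not tested. The 13 protein genes of the mitochondrial genome gave no call by the main test, against 1 higher and 4 lower with no filter, 2 lower with duplicates removed and 1 lower without both libraries. Reads on the mitochondrial genome made up 20.6, 20.9 and 24.04% of a library at 12 h and 21.5, 25.5 and 20.5% at 3 h. The means, 21.8% ± 1.90 at 12 h and 22.5% ± 2.64 at 3 h (SD, n = 3 each), did not differ beyond the spread (exact permutation test, two-sided, p = 0.7, where 3 against 3 cannot go below 0.1).

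Clock genes differed between the times and also within them. The clock is a loop in which ARNTL with CLOCK or NPAS2 switches on Per, Cry, Nr1d and Dbp genes, whose products feed back, so levels follow the hour of the day. Of 23 clock genes 10 were lower and 1 was higher at 12 h, with a median of -0.58. The counts were 8 and 1 under scaling by library totals (median -0.36), without 3 h replicate 1 (-0.29) or without both libraries that stood apart (-0.49). With no filter they were 13 and 2. Nr1d1, the repressor REV-ERB alpha, had 22.1, 25.5 and 28.2 CPM at 12 h and 95.9, 148 and 154 CPM at 3 h (log2 fold change -2.39 ± 0.27, adjusted p = 1.22e-06). Nfil3, a repressor of the clock's output, had 21.5, 17.4 and 19.3 CPM at 12 h and 44.5, 79.5 and 79.3 CPM at 3 h (log2 fold change -1.80 ± 0.33, adjusted p = 0.00023). Bhlhe41, a repressor that competes at E-boxes, had 24.4, 28.7 and 34.9 CPM at 12 h and 80.4, 78.8 and 72.2 CPM at 3 h (log2 fold change -1.39 ± 0.22, adjusted p = 5.79e-05). These 3 did not overlap between times, and neither did Per1, at 90.96, 86.4 and 127 CPM at 12 h and 212, 189 and 224 CPM at 3 h (log2 fold change -1.03 ± 0.28, adjusted p = 0.00658), or Nr1d2, at 40.4, 39.6 and 76.5 CPM at 12 h and 137, 81.8 and 93.2 CPM at 3 h (log2 fold change -0.998 ± 0.27, adjusted p = 0.00592). Over the list of 23, 10 genes were lower without overlap and 1 was higher without overlap, beside 43.4% of all genes tested in either direction.

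In Arntl, Dbp, Per3, Per2 and Npas2 the times overlapped, and in the first 3 of these 1 library of each time lay apart. Arntl, the positive arm, had 18.7, 19.3 and 3.98 CPM at 12 h and 8.67, 30.03 and 28.9 CPM at 3 h (log2 fold change -0.68 ± 0.63, adjusted p = 0.427): 12 h replicate 3 and 3 h replicate 1 were low and the other 4 libraries high. Dbp, an output factor in antiphase to Arntl, had 9.56, 6.16 and 28.9 CPM at 12 h and 52.03, 9.54 and 10.9 CPM at 3 h (log2 fold change -0.71 ± 0.74, adjusted p = 0.48), with the same 2 libraries high. Per3 had 13.2, 10.004 and 29.3 CPM at 12 h and 23.4, 5.103 and 5.85 CPM at 3 h (log2 fold change 0.59 ± 0.63, adjusted p = 0.497), again with those 2 high. Per2 had 16.4, 12.4 and 39.1 CPM at 12 h and 64.1, 20.6 and 33.4 CPM at 3 h (log2 fold change -0.81 ± 0.49, adjusted p = 0.208). Npas2 had 9.17, 10.8 and 3.58 CPM at 12 h and 5.36, 6.43 and 6.89 CPM at 3 h (log2 fold change 0.34 ± 0.42, adjusted p = 0.558). The difference of Per2 passed without 12 h replicate 3 (log2 fold change -1.46, adjusted p = 0.0415) and did not pass with both libraries left out (log2 fold change -0.93, adjusted p = 0.191). With both left out, a choice made after these values were seen, the calls remained for Nr1d1 at a log2 fold change of -2.68 (adjusted p = 6.79e-06), Nfil3 at -2.05 (adjusted p = 0.00052) and Bhlhe41 at -1.52 (adjusted p = 0.00031). So did those of Per1 at -1.23 (adjusted p = 0.00989) and Nr1d2 at -1.15 (adjusted p = 0.00326). Ciart, a repressor under circadian control, had 1.26, 1.62 and 2.16 CPM at 12 h and 15.6, 2.74 and 5.07 CPM at 3 h (log2 fold change -2.23 ± 0.73, adjusted p = 0.0216). Its call was lost with both libraries left out, under limma-voom, and without 3 h replicate 1, 12 h replicate 1 or 12 h replicate 2. The hour of collection is not labelled, and its part in the differences within each time was not tested.

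**Figure D5:**
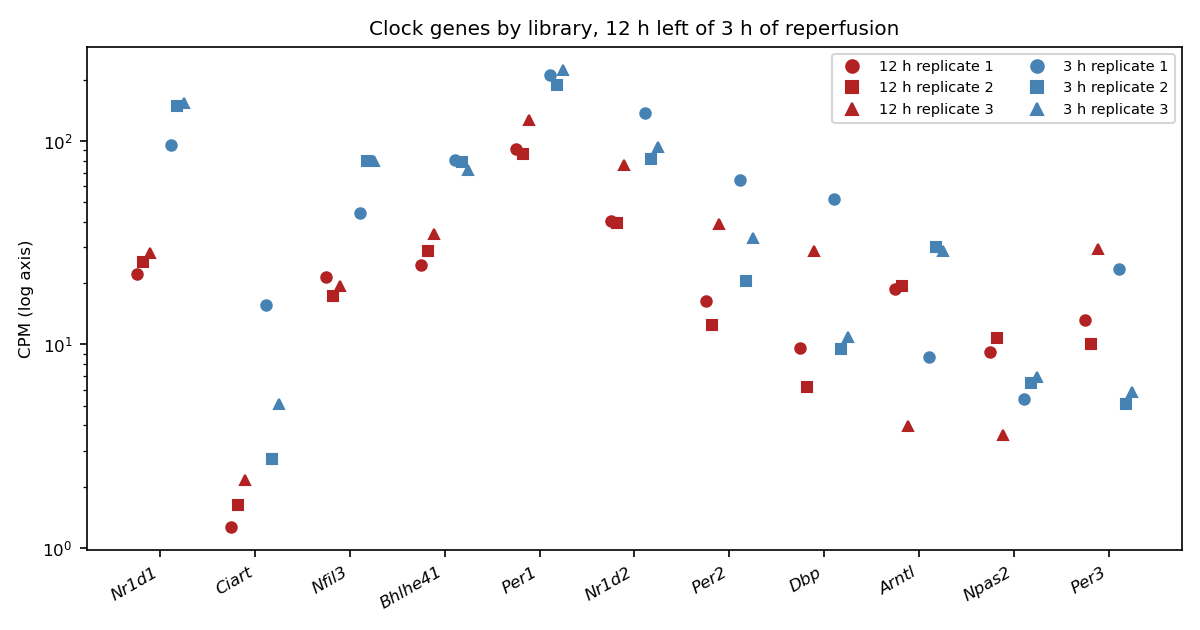
CPM (log axis) of 11 clock genes in each library, with 12 h (red) left of 3 h (blue) and the marker shape giving the replicate. Nr1d1, Nfil3, Bhlhe41 and Per1 separate the times, while in Dbp, Arntl and Per3 the red triangle (12 h replicate 3) and the blue circle (3 h replicate 1) lie apart from the other 4 libraries.

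The E-box CACGTG, a palindrome that ARNTL and its partners bind, was searched in the same promoter windows, where 6.02% of all windows held at least 1. Of 10 clock genes with a window 3 had a match, and these are shown: Ciart (minus strand, chr3:95882229-95882478), Per1 (first of 2 starts, plus strand, chr11:69098699-69098948) and Bhlhe41 (minus strand, chr6:145865421-145865670), all called lower. Ciart held 3 E-boxes and this start of Per1 and Bhlhe41 held 1 each, none overlapping another.
Ciart: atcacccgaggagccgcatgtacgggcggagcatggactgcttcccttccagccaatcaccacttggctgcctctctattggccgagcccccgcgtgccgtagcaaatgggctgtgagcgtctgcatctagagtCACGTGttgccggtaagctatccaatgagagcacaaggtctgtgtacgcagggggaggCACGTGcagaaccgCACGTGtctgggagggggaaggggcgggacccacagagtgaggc
Per1: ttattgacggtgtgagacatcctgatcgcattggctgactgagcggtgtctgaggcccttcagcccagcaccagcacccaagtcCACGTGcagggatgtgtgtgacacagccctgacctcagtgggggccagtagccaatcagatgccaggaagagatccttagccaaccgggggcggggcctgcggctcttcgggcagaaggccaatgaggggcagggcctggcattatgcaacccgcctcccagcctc
Bhlhe41: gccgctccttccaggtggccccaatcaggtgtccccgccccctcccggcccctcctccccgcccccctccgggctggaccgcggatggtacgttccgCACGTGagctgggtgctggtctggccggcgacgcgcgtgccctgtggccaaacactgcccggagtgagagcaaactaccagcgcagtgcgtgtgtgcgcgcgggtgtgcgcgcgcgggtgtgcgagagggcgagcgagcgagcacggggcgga
The second start of Per1 and the windows of the other 7 genes held no match, which says only that these letters are not in those windows. Of these 7, Nr1d1, Nfil3 and Nr1d2 were also called lower, while Dbp, Arntl, Per3 and Npas2 were not called.

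Fancd2 had 0.549, 0.606 and 0.114 CPM at 12 h and 1.75, 0.3698 and 0.3901 CPM at 3 h (log2 fold change -0.99 ± 0.74, adjusted p = 0.319) and did not pass. The times overlapped, and 3 h replicate 1 was the highest of the 6 libraries. Of 22 Fanconi anaemia and crosslink repair genes, 6 were higher and 2 were lower. The counts were 3 and 2 without 3 h replicate 2, 3 and 1 without 3 h replicate 3 or 12 h replicate 1, and 4 and 1 without 12 h replicate 2 or with only the 6 libraries. They were 8 and 1 without 3 h replicate 1, and 7 and 1 under scaling by library totals or without both libraries that stood apart. Palb2, which brings BRCA2 to broken DNA, had 1.54, 1.52 and 1.08 CPM at 12 h and 0.602, 0.518 and 0.3901 CPM at 3 h (log2 fold change 1.44 ± 0.40, adjusted p = 0.00738). Brip1, a helicase of the pathway, had 1.32, 0.657 and 0.398 CPM at 12 h and 2.11, 1.48 and 2.54 CPM at 3 h (log2 fold change -1.36 ± 0.38, adjusted p = 0.00766), a call lost without both libraries that stood apart. Of 30 genes of ferroptosis, 7 were lower, Atf3 the furthest, and 3 were higher. Calls in either direction made up 33.7% of all genes tested, so the list held about the share of calls found over all genes. Under scaling by library totals 3 were lower and 6 were higher. The counts were 4 and 3 with only the 6 libraries in the fit, 4 and 2 without 12 h replicate 2 and 8 and 6 with no filter. Gpx4, the enzyme that clears lipid peroxides, had 303, 279.8 and 333 CPM at 12 h and 349.6, 445 and 365 CPM at 3 h (log2 fold change -0.34 ± 0.13, adjusted p = 0.0491), a call lost under 9 of the alternatives. Sat1, which breaks down polyamines, had 32.4, 33.8 and 42.2 CPM at 12 h and 147, 145 and 168 CPM at 3 h (log2 fold change -2.09 ± 0.26, adjusted p = 4.92e-06). Slc40a1, ferroportin, the exporter of iron, had 33.3, 31.2 and 18.4 CPM at 12 h and 17.1, 11.5 and 12.4 CPM at 3 h (log2 fold change 1.02 ± 0.25, adjusted p = 0.0037). Slc7a11, the cystine importer, had 1.65, 3.03 and 4.83 CPM at 12 h and 2.05, 0.887 and 1.82 CPM at 3 h (log2 fold change 0.98 ± 0.43, adjusted p = 0.0817). Ptgs2, a common marker of ferroptosis, had 3.63, 8.44 and 11.3 CPM at 12 h and 15.6, 7.54 and 16.5 CPM at 3 h (log2 fold change -0.77 ± 0.36, adjusted p = 0.0998). Hmox1, which frees iron from heme, had 72.2, 74.5 and 59.02 CPM at 12 h and 219.7, 42.2 and 91.4 CPM at 3 h (log2 fold change -0.78 ± 0.40, adjusted p = 0.13). The libraries of Slc7a11, Ptgs2 and Hmox1 overlapped, and none of the 3 passed.

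Among 20 NRF2 targets and metallothioneins 2 were higher and 4 were lower, or 6 and 0 under scaling by library totals. The counts were 4 and 3 without 3 h replicate 2, 2 and 2 without 12 h replicate 2, 4 and 4 with no filter and 2 and 1 with only the 6 libraries. G6pdx, the enzyme that opens the pentose phosphate route, had 12.5, 11.7 and 11.5 CPM at 12 h and 4.94, 3.55 and 5.72 CPM at 3 h (log2 fold change 1.32 ± 0.18, adjusted p = 1.07e-05). Gsr, glutathione reductase, had 38.999, 37.9 and 35.1 CPM at 12 h and 27.2, 21.003 and 22.4 CPM at 3 h (log2 fold change 0.67 ± 0.12, adjusted p = 0.000137). Targets of p53 gave 11 lower and 4 higher of 23. The counts were 7 and 8 under scaling by library totals, 7 and 1 without 3 h replicate 2 and 10 and 2 with only the 6 libraries. Trp53inp1, a cofactor of p53 and of autophagy, had 17.8, 13.4 and 19.7 CPM at 12 h and 68.2, 71.7 and 68.1 CPM at 3 h (log2 fold change -2.03 ± 0.28, adjusted p = 1.17e-05). Gadd45a, a growth arrest gene, had 9.997, 8.34 and 6.596 CPM at 12 h and 34.8, 27.7 and 22.7 CPM at 3 h (log2 fold change -1.77 ± 0.26, adjusted p = 2.42e-05). Cdkn1a, the cell cycle inhibitor p21, had 214, 149 and 120.1 CPM at 12 h and 206, 404 and 409 CPM at 3 h (log2 fold change -1.08 ± 0.31, adjusted p = 0.0105), with overlap and with the call lost under scaling by library totals and without 3 h replicate 2, 3 h replicate 3 or 12 h replicate 3. Of 26 cell death genes 6 were lower and 4 were higher, the higher count ranging from 1 without 3 h replicate 2 or 12 h replicate 2 and 2 with only the 6 libraries to 9 under scaling by library totals. Ripk1, the kinase at the branch of survival and necroptosis, had 7.42, 10.2 and 9.38 CPM at 12 h and 28.4, 35.3 and 24.7 CPM at 3 h (log2 fold change -1.71 ± 0.21, adjusted p = 4.19e-06). Casp4, an inflammatory caspase, had 3.79, 6.72 and 6.77 CPM at 12 h and 20.4, 9.91 and 12.5 CPM at 3 h (log2 fold change -1.31 ± 0.27, adjusted p = 0.000826). Cell cycle genes mostly did not pass, with 1 of 40 higher and 6 lower, though 8 were higher with 3 h replicate 1 left out and 9 with both libraries that stood apart left out. Under scaling by library totals 4 were higher and 4 were lower. The higher count was 2 with 12 h replicate 3 alone left out, under DESeq2 or limma-voom, with a replicate block or with no filter. Cenpa, a centromere histone, had 28.01, 28.9 and 24.5 CPM at 12 h and 75.3, 45.9 and 54.8 CPM at 3 h (log2 fold change -1.11 ± 0.16, adjusted p = 1.52e-05).

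Many genes that build ribosomes were higher at 12 h, while the ribosomal proteins mostly did not pass. Of 40 ribosome biogenesis genes 24 were higher (16.8% of all genes were), 1 was lower and 15 did not pass, with a median of 0.48. The higher count ran from 18 without 12 h replicate 2 or 12 h replicate 3 to 32 under scaling by library totals. The 1 lower call was lost under that scaling, with no filter, with only the 6 libraries, without both libraries that stood apart and without any 1 library other than 3 h replicate 1. Utp20, a component of the small subunit processome, had 26.5, 35.3 and 38.2 CPM at 12 h and 18.1, 16.6 and 12.3 CPM at 3 h (log2 fold change 1.09 ± 0.16, adjusted p = 2.45e-05). Nop16 had 20.5, 23.5 and 20.5 CPM at 12 h and 12.9, 11.8 and 10.8 CPM at 3 h (log2 fold change 0.86 ± 0.14, adjusted p = 7.02e-05). Polr1b, a subunit of RNA polymerase I, had 28.9, 30.7 and 30.9 CPM at 12 h and 20.7, 13.6 and 16.1 CPM at 3 h (log2 fold change 0.84 ± 0.14, adjusted p = 0.000106). The 6 h means of these 3, 40.8, 26.997 and 40.3 CPM, were above those of 12 h. Of 35 cytosolic ribosomal proteins only Rpl3 was called, with 185, 254 and 221 CPM at 12 h and 148, 145 and 154 CPM at 3 h (log2 fold change 0.56 ± 0.12, adjusted p = 0.00129), and 7 were higher under scaling by library totals. Proteasome subunits gave 1 higher and 1 lower of 36, but 9 and 0 under that scaling, 1 and 3 under DESeq2, 0 and 2 without both libraries, and no call with no filter. There was 1 call with only the 6 libraries or without 3 h replicate 2, 3 h replicate 3, 12 h replicate 1 or 12 h replicate 3. In the tubulin and actin list 7 of 31 were higher and 2 were lower, or 15 and 2 under that scaling, 6 and 4 without both libraries and 7 and 1 with multiply mapped reads. Coro1a, an actin regulator of leukocytes, had 23.3, 30.7 and 21.9 CPM at 12 h and 7.83, 4.44 and 10.4 CPM at 3 h (log2 fold change 1.74 ± 0.22, adjusted p = 5.84e-06). Msn, moesin, which ties actin to the membrane, had 459, 625 and 640.2 CPM at 12 h and 305, 301 and 309 CPM at 3 h (log2 fold change 0.91 ± 0.14, adjusted p = 2.83e-05). Tuba1b, a tubulin, had 235, 287 and 321 CPM at 12 h and 84.7, 90.5 and 108 CPM at 3 h (log2 fold change 1.58 ± 0.15, adjusted p = 9.82e-08), with 73.9% of its reads uniquely placed. In the arginine and polyamine list, 4 of 17 were higher and 4 were lower. Besides Arg1 and Sat1, Srm, spermidine synthase, had 22.6, 28.04 and 32.2 CPM at 12 h and 17.6, 8.87 and 13.8 CPM at 3 h (log2 fold change 1.03 ± 0.20, adjusted p = 0.000474). Nos3, the nitric oxide synthase of endothelium, had 28.5, 25.97 and 33.7 CPM at 12 h and 74.8, 93.6 and 93.7 CPM at 3 h (log2 fold change -1.57 ± 0.21, adjusted p = 7.07e-06).

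Some markers of vessels, fibroblasts and the outer layer of the heart were called, as were 33.7% of all genes tested. Of 18 endothelial markers 8 were lower and 1 was higher, or 3 and 2 under scaling by library totals. None was higher without 3 h replicate 2 or any 1 of the 12 h libraries, with only the 6 libraries or with DESeq2's size factors. Cldn5, the tight junction claudin of endothelium, had 25.4, 26.02 and 24.2 CPM at 12 h and 52.997, 72.9 and 92.9 CPM at 3 h (log2 fold change -1.53 ± 0.38, adjusted p = 0.00357). Robo4, a receptor that steadies vessels, had 51.7, 53.1 and 54.1 CPM at 12 h and 106, 120.03 and 129 CPM at 3 h (log2 fold change -1.16 ± 0.14, adjusted p = 3.18e-06). For both, the 12 h values were near the sham means of 28.9 and 57.7 CPM. The summed markers of endothelium were 2876, 2417 and 2418 CPM at 12 h and 3110, 2867 and 3277 CPM at 3 h, overlapping by 1 library. Vascular growth factors and receptors gave 5 higher and 8 lower of 22, the higher count being 3 under DESeq2 or without 3 h replicate 2, 3 h replicate 3 or 12 h replicate 2, and the lower count 3 under scaling by library totals and 5 without 3 h replicate 3. Apln, the peptide apelin, had 2.197, 4.09 and 6.31 CPM at 12 h and 18.01, 15.5 and 14.6 CPM at 3 h (log2 fold change -1.94 ± 0.29, adjusted p = 2.92e-05). Pgf, placental growth factor, had 9.45, 5.002 and 12.3 CPM at 12 h and 33.2, 26.2 and 41.2 CPM at 3 h (log2 fold change -1.92 ± 0.39, adjusted p = 0.000725). Vegfa had 141, 143 and 190.3 CPM at 12 h and 214, 363 and 280.1 CPM at 3 h (log2 fold change -0.85 ± 0.15, adjusted p = 0.00022). Fgf2, basic fibroblast growth factor, had 42.1, 71.3 and 63.6 CPM at 12 h and 27.2, 12.9 and 13.98 CPM at 3 h (log2 fold change 1.70 ± 0.23, adjusted p = 1.04e-05). Angpt1, which stabilises vessels, had 40.8, 45.4 and 36.1 CPM at 12 h and 22.5, 24.9 and 16.1 CPM at 3 h (log2 fold change 0.95 ± 0.24, adjusted p = 0.00468).

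Fibroblast markers gave 5 lower and 2 higher of 16, or 4 and 3 under scaling by library totals. Fbln1, a fibulin of the matrix, had 51.7, 44.8 and 47.5 CPM at 12 h and 95.7, 102 and 107 CPM at 3 h (log2 fold change -1.08 ± 0.14, adjusted p = 8.06e-06). Pdgfra, the receptor that marks these cells, had 82.996, 88.1 and 78.6 CPM at 12 h and 63.5, 46.9 and 49.1 CPM at 3 h (log2 fold change 0.65 ± 0.11, adjusted p = 0.000167). Of 13 markers of smooth muscle and pericytes 3 were lower and 2 were higher, the higher count being 1 without 3 h replicate 2 or 12 h replicate 1 and the lower count 5 without 12 h replicate 1 or with no filter. Rgs5, a pericyte gene, had 461, 470.4 and 431 CPM at 12 h and 764, 843 and 715 CPM at 3 h (log2 fold change -0.77 ± 0.13, adjusted p = 9.16e-05). Cspg4, the pericyte proteoglycan NG2, had 62.9, 81.3 and 112 CPM at 12 h and 31.98, 28.7 and 38.6 CPM at 3 h (log2 fold change 1.37 ± 0.20, adjusted p = 3.09e-05). Wt1, the factor of epicardium and of regenerating vessels, had 4.23, 5.66 and 8.53 CPM at 12 h and 19.9, 29.6 and 28.9 CPM at 3 h (log2 fold change -2.09 ± 0.27, adjusted p = 5.45e-06). Markers of the mesothelium and epicardium, Wt1 among them, summed to 13.8, 16.7 and 16.9 CPM at 12 h and to 46.6, 36.5 and 41.6 CPM at 3 h, against 33.0, 29.3 and 30.04 CPM in sham hearts. Of the 8 markers 2, Wt1 and Upk3b, were lower and 6 did not pass, with a median of -1.04. Under limma-voom or without any 1 library of 12 h 1 was lower, and with no filter 4 were lower and 1 was higher. The counts were 1 lower and 1 higher without 3 h replicate 1 (median -0.25) or without both libraries that stood apart (median -0.06). Without Wt1 the sums were 9.55, 11.01 and 8.35 CPM at 12 h and 26.7, 6.95 and 12.7 CPM at 3 h, and the times overlapped. Of 12 markers of T and NK cells 1 was lower, and of 10 markers of B cells 3 were lower and 1 was higher, where 33.7% of all genes were called. For T and NK cells 2 were called without 12 h replicate 2 and none with a minimum of 1 CPM in 3 libraries. The 1 higher B cell marker was lost under limma-voom and without any 1 library other than 12 h replicate 1. With only the 6 libraries in the fit 1 was lower and none was higher. Ighm, the heavy chain of immunoglobulin M, had 1.98, 1.92 and 1.76 CPM at 12 h and 3.91, 3.18 and 4.88 CPM at 3 h (log2 fold change -1.08 ± 0.25, adjusted p = 0.00213).

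Complement and coagulation gave 4 higher and 8 lower of 29, or 5 and 5 under scaling by library totals. F3, tissue factor, had 7.42, 8.79 and 14.8 CPM at 12 h and 24.5, 24.9 and 23.5 CPM at 3 h (log2 fold change -1.23 ± 0.21, adjusted p = 0.000122). Plat, the tissue plasminogen activator, had 31.3, 35.3 and 24.5 CPM at 12 h and 62.03, 55.2 and 75.8 CPM at 3 h (log2 fold change -1.08 ± 0.16, adjusted p = 3.22e-05). C3ar1, the receptor of the complement fragment C3a, had 15.98, 15.3 and 13.3 CPM at 12 h and 7.71, 3.99 and 6.37 CPM at 3 h (log2 fold change 1.29 ± 0.21, adjusted p = 7.05e-05). Genes that glucocorticoids induce gave 1 higher and 5 lower of 15, or 3 and 3 under scaling by library totals, 3 and 5 without 3 h replicate 1 or without both libraries, 3 and 6 with no filter, 1 and 3 without 3 h replicate 3 and 2 and 4 without 12 h replicate 3. Errfi1, an inhibitor of the epidermal growth factor receptor, had 51.6, 68.97 and 93.8 CPM at 12 h and 198, 169 and 192 CPM at 3 h (log2 fold change -1.38 ± 0.23, adjusted p = 9.65e-05). Klf9 had 108, 74.5 and 119 CPM at 12 h and 207, 187 and 183 CPM at 3 h (log2 fold change -0.93 ± 0.16, adjusted p = 0.000112).

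The largest falls also held genes that belonged to none of the lists, Myh7b above among them. Slc16a11, a monocarboxylate transporter, had 0.659, 0.303 and 0.569 CPM at 12 h and 4.697, 8.36 and 8.52 CPM at 3 h (log2 fold change -3.80 ± 0.61, adjusted p = 6.17e-05). Otud1, a deubiquitinase, had 11.6, 23.2 and 71.3 CPM at 12 h and 141, 547 and 481 CPM at 3 h (log2 fold change -3.46 ± 0.61, adjusted p = 0.000161), with a 6 h mean of 441 CPM that was still as high as at 3 h. Gm37621 had 0.769, 0.758 and 1.02 CPM at 12 h and 2.77, 25.96 and 7.22 CPM at 3 h (log2 fold change -3.80 ± 0.56, adjusted p = 2.63e-05), where 3 h replicate 2 was far above the other two.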

How the data were processed

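RNA was extracted from heart tissue with Trizol and libraries were made from 1 ug of total RNA with an Illumina TruSeq kit, per the labels' protocols. The authors deposited raw counts per Ensembl gene for each library, in columns with and without duplicate reads and with multiply mapped reads, per the file headers, and the submitters' processing notes name build mm10. No source used here names the aligner, the counter or the strand setting. Symbols came from the reference tables for 45143 of 46078 IDs. From the deposited counts of all uniquely placed reads, genes were kept by filterByExpr (minimum 10, total 15), scaled by TMM and tested with edgeR 4.0.16's quasi-likelihood test in 1 fit of 24 libraries with a coefficient per group (residual degrees of freedom 16, biological coefficient of variation 0.156), as 12 h minus 3 h, with Benjamini-Hochberg adjustment over 15128 genes. Limma 3.58.1-voom and DESeq2 1.42.0 in R 4.3.3 were alternatives, with other scalings, filters, count columns, left-out libraries and a replicate block. CPM values use the TMM-scaled library size. The edgeR script was tested on simulated data.

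The members, lists and tests were chosen with earlier results of these data known. Named genes are the 12 largest rises and falls with at least 5 CPM and no overlap, up to 4 called members a direction of each list with at least 1 CPM, Atf3, Fancd2 and 9 clock genes. Nr4a1, Egr1, Junb, Klf10, Ier3, Klf2, Ier5, Il10, Cxcl5, Ccl2, Il1b, S100a8, Retnlg, Gpx4, Hk2, Slc7a11, Ptgs2 and Hmox1 are named beyond that rule, chosen after their values were seen. A few genes that the rule names are not reported here. Counting intervals and floors cover counting error only, and no molecular identifiers are described. Exon overlap was computed from GENCODE vM21.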

Additional observations from a re-analysis of the deposited data

How the results depend on the processing

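Scaling by library totals gave 4259 higher and 1215 lower genes (77.8% higher, against 49.8% with TMM), and 1410 higher and 557 lower by at least 2-fold. Under every other alternative the 4 counts stayed within 1.5 times those reported. Leaving out 1 library at a time gave 1821 to 2727 higher and 1833 to 2514 lower genes. Of the 5092 called genes, 2456 were called in the same direction under every alternative that gave them an adjusted p. So were 169 of the 247 named genes called, and no named gene turned round. Leaving out 2 libraries together was not among these alternatives. An alternative whose filter dropped a gene was not counted against that gene. Leaving out both 12 h replicate 3 and 3 h replicate 1, chosen after seeing the data, gave 2383 higher and 2407 lower genes. Library numbers did not pair: same-numbered 12 h and 3 h libraries had deviations that correlated at -0.0108, -0.143 and -0.0446, and the fit with a replicate block gave 2449 higher and 2478 lower genes. The difference in mitochondrial share, -0.671 percentage points for 12 h minus 3 h, was -0.549 with duplicates removed and -0.529 with multiply mapped reads, and ran from -1.77 to 0.826 with 1 library left out, turning positive without 3 h replicate 2; the cause was not tested. Falls near the size of the 0.226 shift between scalings depend on the scaling, and genes under 1 CPM rest on few reads.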
